A study of Mus musculus with 15 samples.

Results

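The BTG and TOB antiproliferative genes *Btg1*, *Btg2*, *Btg3*, *Tob1* and *Tob2* were followed in mouse hematopoietic stem cells (HSCs), the blood-forming stem cells of the bone marrow. They are 5 of the 46120 genes in the deposited tables, picked by their symbols. They were proposed with results of these data already in view, so their levels across groups, and their differences after 5-FU and between cultured and fresh cells, are given as descriptions without a test. All cells came from the bone marrow of wild type C57BL/6 mice aged 8 to 10 weeks, and 100 cells were sorted for each library. The fresh cells were from untreated mice (4 libraries) and from mice at day 4 after 5-fluorouracil (5-FU, 4 libraries), an antimetabolite that kills dividing cells. The cultured cells were grown without (control, 3 libraries) or with nifedipine (4 libraries), a blocker of L-type calcium channels, and only those that had gone through at most 3 divisions were sorted. The labels do not say whether replicates came from separate mice or cultures, so p-values measure the spread between these libraries, which may be technical.

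BTG and TOB proteins share an N-terminal domain that binds the deadenylases CNOT7 and CNOT8 of the CCR4-NOT complex, which shortens the poly(A) tails of messenger RNAs. TOB1 and TOB2 also carry motifs for cytoplasmic poly(A)-binding protein, and BTG1 and BTG2 also bind the protein arginine methyltransferase PRMT1. The family is known for slowing entry into the cell cycle when overexpressed, and BTG1 and BTG2 for keeping resting T cells quiescent. *Btg2* is in addition a known target of p53 and one of the genes induced at once by growth factors.

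In mm10 coordinates, *Btg1* lies on chromosome 10 (96617001 to 96622813, plus strand) and *Btg2* on chromosome 1 (134074865 to 134079155, minus strand). *Btg3* lies on chromosome 16 (78359860 to 78377181, minus strand), *Tob1* on chromosome 11 (94211454 to 94215495, plus strand) and *Tob2* on chromosome 15 (81848270 to 81858326, minus strand). *Btg3* has 5 exons in RefSeq and each of the other members has 2. The library preparation does not keep strand, and GENCODE places *Cxadr* over part of *Btg3* and the antisense gene *Gm49476* over part of *Tob2*, so reads of these neighbours cannot be told apart from theirs where they overlap. The remaining family gene, *Btg4*, and the *Btg1* copies *Btg1-ps1* and *Btg1-ps2* were listed at 0 reads in every library.

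The promoters of the 3 members that moved most are shown because they differ in 2 short elements. The sequences are the 250 bases before the gene start, 5′ to 3′ on the gene's strand, from RefSeq (GRCm38.p6, the mm10 assembly). Capitals mark the cyclic AMP response element TGACGTCA, its core TGACG or CGTCA, and the forkhead motif TGTTTAC, searched on both strands. All 5 members matched a RefSeq promoter, *Btg3* with 2 entries. For *Tob1* the window lies inside the RefSeq gene, which starts further upstream at 94209842. The bases just after the start used here were found in 1 GENCODE transcript each for *Btg1* and *Tob1*. For *Btg2* they were found in none, so GENCODE does not bear out that start.
Btg1, chr10:96616751-96617000, plus strand: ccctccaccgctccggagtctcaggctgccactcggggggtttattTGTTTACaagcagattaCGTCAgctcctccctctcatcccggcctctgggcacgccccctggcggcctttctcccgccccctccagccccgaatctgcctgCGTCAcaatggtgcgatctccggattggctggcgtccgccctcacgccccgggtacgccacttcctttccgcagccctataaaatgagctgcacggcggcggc
Btg2, chr1:134079156-134079405, minus strand: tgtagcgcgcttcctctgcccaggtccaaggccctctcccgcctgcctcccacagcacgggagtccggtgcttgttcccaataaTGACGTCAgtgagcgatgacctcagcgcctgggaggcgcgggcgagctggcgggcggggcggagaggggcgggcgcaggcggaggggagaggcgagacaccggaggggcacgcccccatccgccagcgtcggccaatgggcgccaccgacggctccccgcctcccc
Tob1, chr11:94211204-94211453, plus strand: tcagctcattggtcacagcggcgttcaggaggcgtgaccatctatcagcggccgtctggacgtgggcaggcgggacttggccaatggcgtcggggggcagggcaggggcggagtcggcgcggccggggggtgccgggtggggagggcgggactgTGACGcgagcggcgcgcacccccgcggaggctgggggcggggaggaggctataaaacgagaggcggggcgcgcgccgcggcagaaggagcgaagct
The full element was found in *Btg2* alone among the 5 members, where it holds both core matches, and in 1.546% of 32851 promoters of this length. The core was found at 2 places in *Btg1* and 1 in *Tob1*, and in 17.765% of all promoters. The forkhead motif was found in *Btg1* alone, and in 3.166% of all promoters. The windows of *Btg3* and *Tob2* hold none of the 3 elements. A match describes these letters and no more, and binding was not measured.

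Exon reads per library ranged from 6171730 to 26673045, and the members had between 64 (*Btg2*, 5-FU) and 4981 (*Btg1*, untreated) reads per library. All 10 HSC marker genes had reads in every group. Their summed level was 4639 to 4987 CPM (reads of a gene scaled to the library size) in untreated, 3220 to 3487 in 5-FU, 1353 to 1440 in control and 2230 to 2494 in nifedipine libraries. Stromal and endothelial markers (9 genes) summed to 502, 1772, 136 and 505 CPM in Untreated 1 to 4, to 473 in 5-FU 4 against 99.9 to 123 in the other 5-FU libraries, and to 132 to 167 in the cultured libraries, where *Cxcl12* had 0 reads. Most of the sum in the cultured libraries was *Pecam1*, at a mean of 131 CPM in control and 120 in nifedipine libraries. It was at 88.2 CPM in untreated and 58.3 in 5-FU libraries. Mitosis genes summed to 752 CPM in Untreated 3 and to 164 to 342 in the other untreated libraries. The 12 granulocyte and monocyte markers summed to 147 to 175 CPM in untreated, 135 to 138 in 5-FU, 60.6 to 76.4 in control and 210 to 232 in nifedipine libraries. Most of this was the lysozyme gene *Lyz2*, at a mean of 140, 122, 67.5 and 216 CPM in the same order, while *Mpo* had 0 reads outside the untreated group. The 10 lymphoid markers summed to at most 25.4 CPM in any library, with *Nkg7* at 6.27 and *Ebf1* at 5.86 CPM on average in untreated cells, and *Cd3e*, *Cd3g* and *Ms4a1* had 0 reads in every library. Erythroid markers summed to 43.5 to 1392 CPM in untreated libraries and to at most 109 in any other library.

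*Btg1* and *Btg2* were high in untreated cells and lower in every other group. Levels of 1 gene are given as CPM, with the libraries scaled together by TMM (a scaling by the trimmed mean of log ratios). *Btg2*, which recruits the deadenylase to its target messages, stood at 159, 162, 191 and 284 CPM in the untreated libraries. After 5-FU it was at 8.18, 6.33, 13.0 and 14.4 CPM. In control cultures it was at 5.75, 8.06 and 11.8 CPM, and with nifedipine at 13.7, 15.1, 12.8 and 13.4 CPM. The lowest untreated library was thus above every library of the other groups. In order of the mean, untreated (199 ± 58.2 CPM, SD, n = 4) came before nifedipine (13.8 ± 0.992, n = 4), 5-FU (10.5 ± 3.85, n = 4) and control (8.52 ± 3.03, n = 3). Nifedipine and 5-FU overlapped, as did 5-FU and control, while nifedipine and control did not. On the authors' RPKM values, reads scaled by exon length and library, nifedipine and 5-FU did not overlap, by a margin of 1.485 against 1.484.

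*Btg1*, the closest relative of *Btg2*, was at 278, 197, 208 and 302 CPM in untreated cells. The 5-FU libraries held 59.1, 65.2, 84.6 and 91.3 CPM. The control cultures held 52.6, 55.4 and 53.1 CPM, and the nifedipine cultures 83.9, 83.3, 76.5 and 86.4 CPM. Untreated cells (246 ± 51.5 CPM, SD, n = 4) again lay above all others without overlap. Nifedipine (82.5 ± 4.22, n = 4) and 5-FU (75.0 ± 15.3, n = 4) overlapped, and control (53.7 ± 1.51, n = 3) was below both without overlap.

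*Btg3*, a more distant member of the BTG branch, moved little. It was at 38.7, 40.9, 43.3 and 48.2 CPM in untreated and at 57.9, 47.8, 49.7 and 46.9 CPM in 5-FU libraries. Control cultures held 31.4, 36.8 and 35.4 CPM, and nifedipine cultures 44.7, 37.1, 33.7 and 33.8 CPM. Each neighbour in the order 5-FU (50.6 ± 5.03 CPM, SD, n = 4), untreated (42.8 ± 4.10, n = 4), nifedipine (37.3 ± 5.14, n = 4) and control (34.5 ± 2.81, n = 3) overlapped with the next. Only groups further apart in that order were separate, namely 5-FU from both cultured groups and untreated from control. On RPKM values 5-FU and untreated were separate instead, while 5-FU and nifedipine, and untreated and control, overlapped.

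*Tob1*, which brings deadenylase and poly(A)-binding protein together, was highest in the nifedipine cultures. It was at 28.4, 37.3, 31.6 and 41.2 CPM in untreated and at 18.5, 23.2, 25.6 and 18.5 CPM in 5-FU libraries. Control cultures held 25.9, 26.9 and 34.6 CPM, and nifedipine cultures 65.4, 49.3, 48.3 and 69.9 CPM. Nifedipine (58.2 ± 11.0 CPM, SD, n = 4) lay above every other library, untreated (34.6 ± 5.71, n = 4) and control (29.2 ± 4.77, n = 3) overlapped, and 5-FU (21.4 ± 3.58, n = 4) was lowest. The gap between control and 5-FU was narrow, 25.9 against 25.6 CPM, and on RPKM values the 5-FU and untreated groups overlapped.

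*Tob2*, the close relative of *Tob1*, had the smallest ratio between its highest and lowest group mean. It was at 82.8, 85.4, 89.4 and 89.3 CPM in untreated and at 55.7, 60.8, 72.5 and 66.2 CPM in 5-FU libraries. Control cultures held 73.0, 68.7 and 68.3 CPM, and nifedipine cultures 64.6, 68.1, 66.5 and 64.6 CPM. Untreated (86.7 ± 3.22 CPM, SD, n = 4) stood above control (70.0 ± 2.62, n = 3), nifedipine (65.9 ± 1.67, n = 4) and 5-FU (63.8 ± 7.19, n = 4). Control and nifedipine did not overlap, by a margin of 68.28 against 68.05 CPM, and 5-FU overlapped with both. On RPKM values untreated overlapped with control and with nifedipine, and control with nifedipine.

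**Figure D1:**
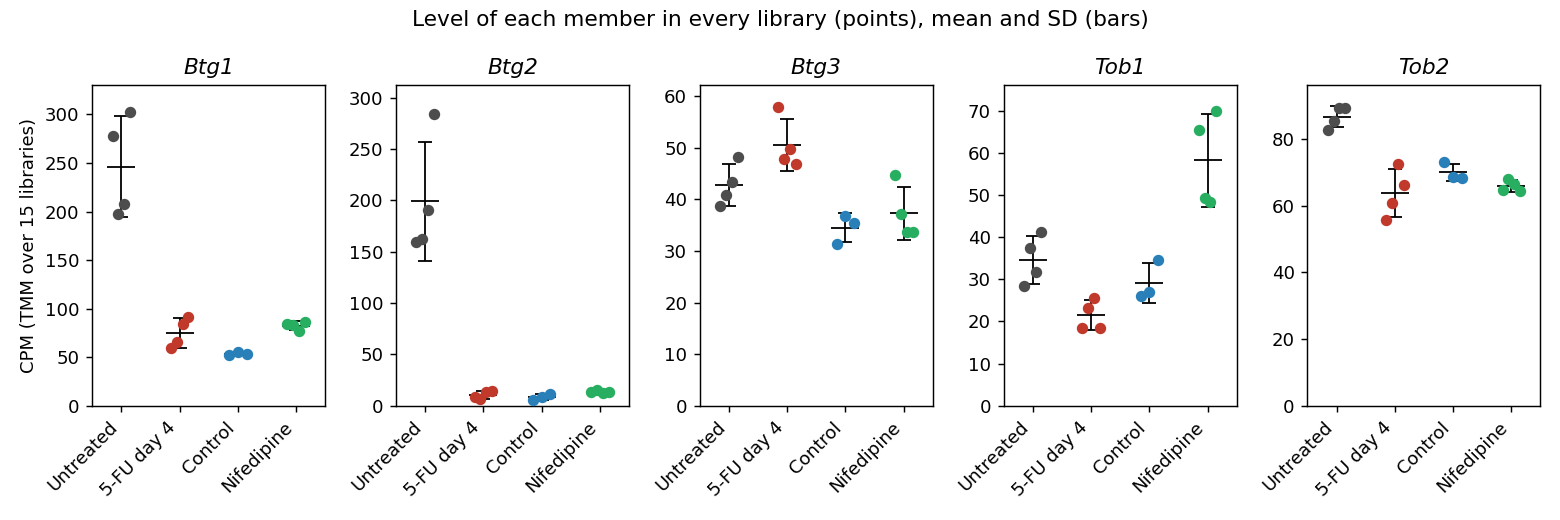
Level of each member in CPM (y axis, linear from 0, its own scale per gene) in the 15 libraries (points) of the 4 groups (x axis), with mean and SD as horizontal bars. Every untreated library is above 159 CPM for Btg2, the other libraries are between 5.75 and 15.1 CPM, and the nifedipine libraries are the highest for Tob1.

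Levels of different genes were compared per kilobase of exon (CPM per kb). In untreated cells *Btg2* was the highest member at 64.5 ± 18.9 CPM per kb (SD, n = 4), then *Btg1* at 49.2 ± 10.3, *Btg3* at 29.97 ± 2.87, *Tob2* at 21.7 ± 0.807 and *Tob1* at 15.1 ± 2.50. Among 14076 genes this placed the mean level of *Btg2* at percentile 95.96. Its mean level was at percentile 32.5 after 5-FU, 34.21 in control and 37.8 in nifedipine cells, where it was the lowest member in each group. The mean level of *Btg1* was at percentile 93.71 in untreated, 66.4 in 5-FU, 57.65 in control and 67.73 in nifedipine cells. *Btg3* was the highest member after 5-FU, at 35.4 ± 3.52 CPM per kb (n = 4), and in control cells, at 24.2 ± 1.97 (n = 3). In nifedipine cells *Btg3* at 26.1 ± 3.60 and *Tob1* at 25.5 ± 4.81 CPM per kb (n = 4 each) differed by less than their spread.

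The summed level of the 5 members was 167, 158, 170 and 226 CPM per kb in the untreated libraries. It was 77.0, 73.9, 85.3 and 80.3 after 5-FU, 63.9, 68.4 and 71.4 in control, and 97.2, 86.1, 80.8 and 91.9 in nifedipine cells. Untreated libraries did not overlap with any other group. Control libraries lay below the 5-FU and the nifedipine libraries without overlap, and 5-FU and nifedipine libraries overlapped. *Btg1* and *Btg2* together made up 62.6% ± 3.95 of the sum in untreated cells (SD, n = 4), 23.1% ± 4.40 after 5-FU (n = 4), 19.8% ± 0.451 in control (n = 3) and 23.6% ± 1.35 in nifedipine cells (n = 4). The share of *Tob1* was 18.7% ± 2.17 in control, 28.5% ± 3.68 in nifedipine and 8.45% ± 1.27 in untreated cells.

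**Figure D2:**
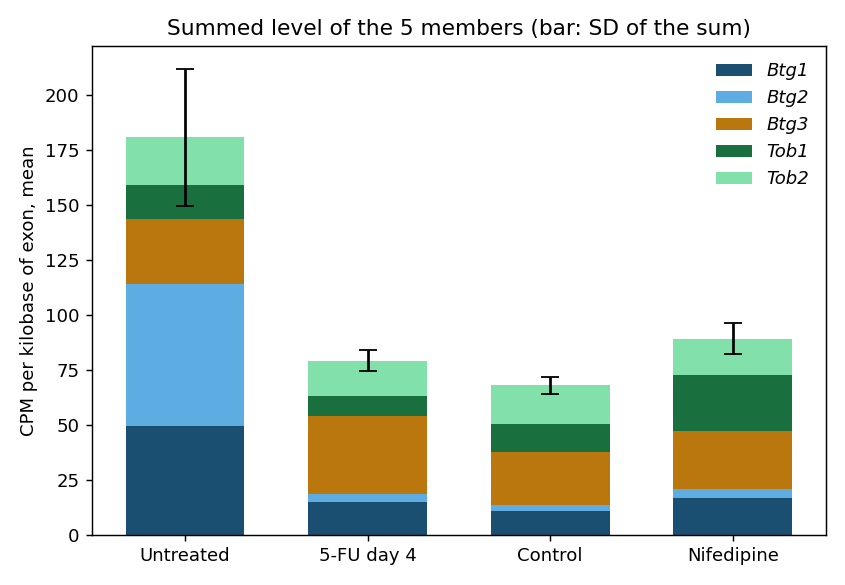
Mean level of the 5 members in CPM per kilobase of exon (y axis, linear from 0), stacked by gene for the 4 groups (x axis), with the SD of the sum over libraries as the error bar. Btg1 and Btg2 hold 62.6% of the sum in untreated cells and at most 23.6% in the other groups.

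The comparison of 5-FU with untreated cells asks what changes when HSCs are activated in the animal. Fold changes, standard errors (SE) and adjusted p-values come from edgeR's quasi-likelihood test on the counts of the 2 groups compared, with Benjamini-Hochberg adjustment over all genes tested. Called genes are those with an adjusted p of at most 0.05. All 5 members passed the filter on low counts in every comparison. *Btg2* was 18.3-fold lower after 5-FU (log2 fold change -4.19 ± 0.27, SE), a value at percentile 0.134 of 13384 genes. *Btg1* was 3.22-fold lower (-1.69 ± 0.17). *Tob1* (-0.66 ± 0.15) and *Tob2* (-0.41 ± 0.08) were lower by smaller amounts, and *Btg3* was at 0.27 ± 0.10. The 5-FU libraries did not overlap with the untreated ones for 4 of the 5 members, all lower. Of the genes tested, 21.5% were lower and 25.8% higher without overlap. The members were proposed with results of these data in view, so nothing is read from that count.

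The size of the smaller differences depended on the scaling. With library totals derived from the RPKM values, *Tob2* was at -0.22 and *Btg3* at 0.47, and with a correction for exon length *Btg3* was at 0.068. These totals moved the median of all genes by 0.20 (log2). Without Untreated 3 and 5-FU 4, *Btg2* was at -4.40 and *Btg1* at -1.87, and without Untreated 2 they were at -4.27 and -1.77. Among fits without 1 library, the falls were smallest without Untreated 4, at -3.97 and -1.57. Of the untreated libraries, Untreated 4 had the highest *Btg1* and *Btg2* levels (302 and 284 CPM). It also had their highest sums of immediate early genes (5273 CPM) and erythroid markers (1392 CPM), whose part in the falls was not tested. *Btg2* was higher in 5-FU 3 and 5-FU 4 (13.0 and 14.4 CPM) than in 5-FU 1 and 5-FU 2 (8.18 and 6.33). The summed level of 20 immediate early genes was also higher in these libraries, at 1680 and 1399 against 846 and 685 CPM. Stromal and endothelial markers summed to 473 CPM in 5-FU 4, against 99.9 to 123 in the other 5-FU libraries. The part of either list in these *Btg2* levels was not tested. In Untreated 3, the untreated library with the lowest sum of stromal and endothelial markers, *Btg1* was at 208 and *Btg2* at 191 CPM. That library also had the highest sum of mitosis genes among the untreated libraries. Of the 9 stromal and endothelial markers, 4 were called lower after 5-FU (median log2 fold change -2.39). Without Untreated 3 and 5-FU 4, 8 were called lower (median -3.77). The part of stromal and endothelial cells in the members' differences was not tested in any library. In bulk samples, fewer cells with a transcript and less transcript per cell cannot be told apart.

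The comparison of nifedipine with control asks what nifedipine changes in cultured HSCs. The members were proposed with results of these data known, so the p-values below are no independent evidence. *Tob1* was 2.00-fold higher with nifedipine (log2 fold change 1.00 ± 0.14, SE, edgeR adjusted p = 1.01e-05, higher in every nifedipine library than in any control library). *Btg1* was 1.54-fold higher (0.62 ± 0.08, adjusted p = 4.21e-06), again with no overlap. *Btg2* was 1.62-fold higher (0.69 ± 0.21, adjusted p = 0.00964), with no overlap either. Without Control 1, the library with the lowest *Btg2* level, its difference was 0.47 and no longer called (edgeR adjusted p = 0.0678). These 3 of 5 members were called higher, where 25.8% of 12807 genes tested were called higher and 24.2% lower. They were also higher without overlap, and *Tob2* was lower without overlap in CPM though not in RPKM. Of all genes, 25.8% were higher and 25.5% lower without overlap in CPM. *Btg3* (0.12, 95% interval -0.13 to 0.36, adjusted p = 0.442) and *Tob2* (-0.086, -0.25 to 0.076, adjusted p = 0.378) were not called.

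Over the 16 alternatives the adjusted p ranged from 8.52e-11 to 0.000169 for *Tob1*, from 1.95e-12 to 0.00274 for *Btg1* and from 0.000787 to 0.0678 for *Btg2*. *Tob1* and *Btg1* kept their call in each. The rise of *Btg2* left it at 13.8 CPM, far under the lowest untreated library at 159 CPM. *Tob1* at 58.2 CPM was by contrast above the highest untreated library at 41.2 CPM. Nifedipine and untreated libraries differ in culture and experiment as well as in the drug, and these cannot be told apart. Markers of other cell types differed between nifedipine and control libraries. All 3 granulocyte and monocyte markers that passed the filter were called higher with nifedipine (median log2 fold change 1.68), and 4 of 5 megakaryocyte markers lower (median -1.01), with sums of 123 to 258 CPM against 265 to 438 in control libraries. Of 4 erythroid markers 3 were called lower (sums of 39.7 to 61.7 against 98.5 to 109 CPM), and of 10 HSC markers 8 were called higher and 1 lower. Their part in the members' differences was not tested.

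The control cultures were also set against fresh untreated cells. Culture and the experiment in which the libraries were made cannot be told apart here, and the comparison shares its untreated libraries with that of 5-FU. *Btg2* was 22.7-fold lower in control cultures (log2 fold change -4.51 ± 0.30, SE) and *Btg1* 4.43-fold lower (-2.15 ± 0.15). *Btg3* and *Tob2* were each at -0.26 (SE 0.10 and 0.07), and *Tob1* at -0.19 ± 0.16. For 4 of the 5 members the groups did not overlap, all lower in culture. Of 13520 genes tested, 35.6% were lower and 36.3% higher without overlap. With library totals derived from the RPKM values, *Tob1* was at 0.049, *Btg3* at -0.022 and *Tob2* at -0.018, and with a correction for exon length *Btg3* was at -0.64. The directions of these 3 genes therefore rest on the scaling or are close to 0, and only *Btg1* and *Btg2* were lower by more than 1 log2 unit under each setting tried. Of the 9 stromal and endothelial markers, 8 were called lower in control cultures, and all 4 granulocyte and monocyte markers that passed the filter were. Their part in these differences was not tested.

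**Figure D3:**
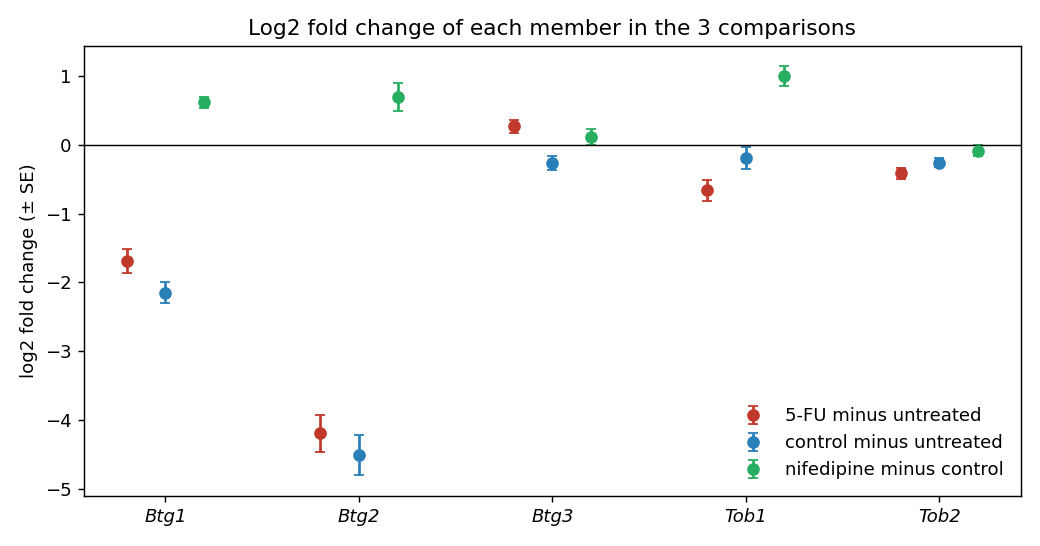
Log2 fold change of each member (x axis) with its standard error (bars) in the 3 comparisons (colours), on a linear y axis. Btg1 and Btg2 are lowest after 5-FU and in control culture, at -4.19 and -4.51 for Btg2, while Tob1 is highest with nifedipine at 1.00.

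The genes that BTG and TOB proteins work with were taken from lists chosen with earlier results known, and their counts are described beside the share of all genes called. The CCR4-NOT complex holds the deadenylases to which these proteins bind. After 5-FU, 5 of its 12 genes were called higher and 1 lower, with a median log2 fold change of 0.065, where 26.7% of all genes tested were called higher and 23.8% lower and their median was -0.023. With library totals derived from the RPKM values 8 were called higher and 1 lower (median 0.26). *Cnot9*, a subunit that docks RNA-binding proteins, rose from 51.5 ± 5.70 to 93.8 ± 2.95 CPM (log2 fold change 0.86, edgeR adjusted p = 1.83e-05). *Cnot6*, a catalytic subunit, rose by 0.57 (adjusted p = 3.05e-05) and the scaffold *Cnot1* by 0.29 (adjusted p = 0.000226). *Tnks1bp1*, a peripheral subunit, fell by 0.52 (adjusted p = 0.00236). *Cnot7* and *Cnot8*, the direct partners of the family, were not called, at -0.13 (adjusted p = 0.0628) and 0.10 (adjusted p = 0.419).

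With nifedipine, 2 of the 12 CCR4-NOT genes were called higher and 4 lower, with a median of -0.071 against 0.016 for all genes, of which 25.8% were called higher and 24.2% lower. *Cnot3* fell by 0.59 (edgeR adjusted p = 1.11e-05), *Cnot9* by 0.51 (adjusted p = 5.60e-06) and *Cnot1* by 0.44 (adjusted p = 5.17e-06). *Tnks1bp1* rose from 16.0 ± 3.80 to 38.0 ± 10.1 CPM (1.25, adjusted p = 1.92e-05). *Cnot6l* rose by 0.24 (adjusted p = 0.00598), and was at 0.10 and not called with a correction for exon length (adjusted p = 0.213). *Cnot7* and *Cnot8* were not called, at 0.014 (adjusted p = 0.888) and 0.11 (adjusted p = 0.419).

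Of 10 other deadenylase and poly(A)-binding protein genes, 3 were called higher and 1 lower after 5-FU. Of all genes tested, 26.7% were called higher and 23.8% lower. *Pabpc1*, the main cytoplasmic poly(A)-binding protein that TOB proteins bind, rose from 1463 ± 25.1 to 1777 ± 85.6 CPM (log2 fold change 0.28, edgeR adjusted p = 0.000160). *Pabpc4*, its relative, rose by 0.53 (adjusted p = 0.000178). *Pabpn1*, the nuclear form, rose by 0.30 (adjusted p = 0.00830), and was at 0.17 and not called with a correction for exon length (adjusted p = 0.0674). *Pan3*, a subunit of another deadenylase, fell by 0.38 (adjusted p = 0.00356), and was at -0.18 and not called with library totals derived from the RPKM values (adjusted p = 0.0871). Without Untreated 3 and 5-FU 4, 3 of these genes were called in each direction, and with library totals derived from the RPKM values 5 were called, all higher. With nifedipine 1 was called higher and 4 lower, where 25.8% of all genes tested were called higher and 24.2% lower. *Pabpn1* fell by 0.73 (adjusted p = 2.19e-07), *Pabpc4* by 0.72 (adjusted p = 2.27e-07) and *Pan2* by 0.49 (adjusted p = 0.000495), while *Paip2*, an inhibitor of poly(A)-binding protein, rose by 0.40 (adjusted p = 0.000130).

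RNA-binding proteins that bring CCR4-NOT to chosen messages formed the third list, of which 14 of 15 genes passed the filter. After 5-FU 7 were called lower and 2 higher (median -0.25), where 23.8% of all genes tested were called lower and 26.7% higher. *Zfp36*, which binds AU-rich elements and is itself an immediate early gene, fell from 273 ± 56.3 to 62.3 ± 21.3 CPM (log2 fold change -2.12, edgeR adjusted p = 4.10e-05). *Zfp36l1*, its relative, fell by 0.95 (adjusted p = 2.08e-05) and *Tnrc6c*, a partner of Argonaute proteins, by 0.45 (adjusted p = 2.58e-05). *Nanos1* rose by 0.85 (adjusted p = 0.00526) and *Pum2* by 0.19 (adjusted p = 0.00173). The split depended on the scaling, with 6 lower and 5 higher when library totals derived from the RPKM values were used, and 5 lower and 4 higher with a correction for exon length.

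With nifedipine 6 of the 14 recruiters were called higher and 2 lower (median 0.20), against 25.8% and 24.2% of all genes tested. *Cpeb4*, which binds polyadenylation elements, rose from 35.6 ± 2.85 to 76.5 ± 4.32 CPM (log2 fold change 1.11, edgeR adjusted p = 1.51e-08). *Cpeb2* rose by 0.66 (adjusted p = 0.000206) and *Zfp36l2*, a relative of *Zfp36*, by 0.63 (adjusted p = 4.59e-08). *Rc3h1*, which encodes roquin, fell by 0.41 (adjusted p = 1.44e-05). *Tnrc6a* fell by 0.28 (adjusted p = 0.00350), and was at -0.24 and not called with library totals derived from the RPKM values (adjusted p = 0.0541). With a correction for exon length the split was 5 higher and 4 lower.

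Decapping and 5′ decay follow deadenylation. Of the 18 genes on that list, 10 were called higher and 2 lower after 5-FU (median 0.29), and 1 higher and 12 lower with nifedipine (median -0.35). Of all genes tested, 26.7% were called higher and 23.8% lower after 5-FU, and 25.8% and 24.2% with nifedipine. With library totals derived from the RPKM values, 13 were called higher and 1 lower after 5-FU, and 1 higher and 9 lower with nifedipine. *Lsm2*, of the ring that binds deadenylated ends, rose from 18.9 ± 0.523 to 45.9 ± 2.24 CPM after 5-FU (log2 fold change 1.28, edgeR adjusted p = 2.92e-06) and fell by 0.76 with nifedipine (adjusted p = 7.82e-07). *Lsm6* rose by 0.89 after 5-FU (adjusted p = 0.000113) and fell by 0.61 with nifedipine (adjusted p = 7.56e-06). *Lsm3* rose by 0.86 after 5-FU (adjusted p = 9.95e-06) and *Lsm5* fell by 0.93 with nifedipine (adjusted p = 3.39e-06). The exonuclease gene *Xrn1* fell by 0.38 after 5-FU (adjusted p = 0.000647). The decapping factor *Dcp1b* fell by 0.54 after 5-FU (adjusted p = 0.00992), a call lost with library totals derived from the RPKM values (-0.34, adjusted p = 0.0571), and rose by 0.53 with nifedipine (adjusted p = 0.00923). Several *Lsm* proteins also belong to the spliceosome.

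Of 8 protein arginine methyltransferase genes, 4 were called higher and 1 lower after 5-FU (median 0.25), and 1 higher and 4 lower with nifedipine (median -0.57). The shares of all genes tested were 26.7% higher and 23.8% lower after 5-FU, and 25.8% and 24.2% with nifedipine. *Prmt1*, whose protein binds BTG1 and BTG2, rose from 69.1 ± 3.78 to 145 ± 18.5 CPM after 5-FU (log2 fold change 1.06, edgeR adjusted p = 1.04e-05). With nifedipine it fell from 210 ± 12.6 to 110 ± 11.3 CPM (-0.94, adjusted p = 2.74e-08). *Prmt5* rose by 0.71 after 5-FU (adjusted p = 1.62e-05) and fell by 0.81 with nifedipine (adjusted p = 3.80e-08). *Prmt7* rose by 0.60 (adjusted p = 0.000164) and fell by 0.84 (adjusted p = 2.44e-07). *Prmt2* went the other way, with a fall of 0.80 after 5-FU (adjusted p = 0.000486) and a rise of 0.60 with nifedipine (adjusted p = 0.00982), where the groups overlapped.

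In control cultures against untreated cells, where 35.8% of genes were called higher and 36.1% lower, the CCR4-NOT list had 6 genes higher and 3 lower and the recruiters 4 higher and 7 lower. The decapping list had 15 higher and 2 lower, and the methyltransferases 7 higher and 1 lower. *Prmt1* was at 64.8 ± 3.04 CPM in untreated and 229 ± 13.4 in control libraries (log2 fold change 1.82, edgeR adjusted p = 2.98e-08), and *Zfp36* at 256 ± 52.6 and 10.7 ± 0.360 CPM (-4.57, adjusted p = 3.75e-08). The CCR4-NOT split became 9 higher and 1 lower both with a correction for exon length and with library totals derived from the RPKM values. *Cnot6l*, at -0.24 and called lower (adjusted p = 0.00464), was called higher with the length correction (0.16, edgeR adjusted p = 0.0300). The split of the recruiters became 6 higher and 6 lower with the length correction.

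**Figure D4:**
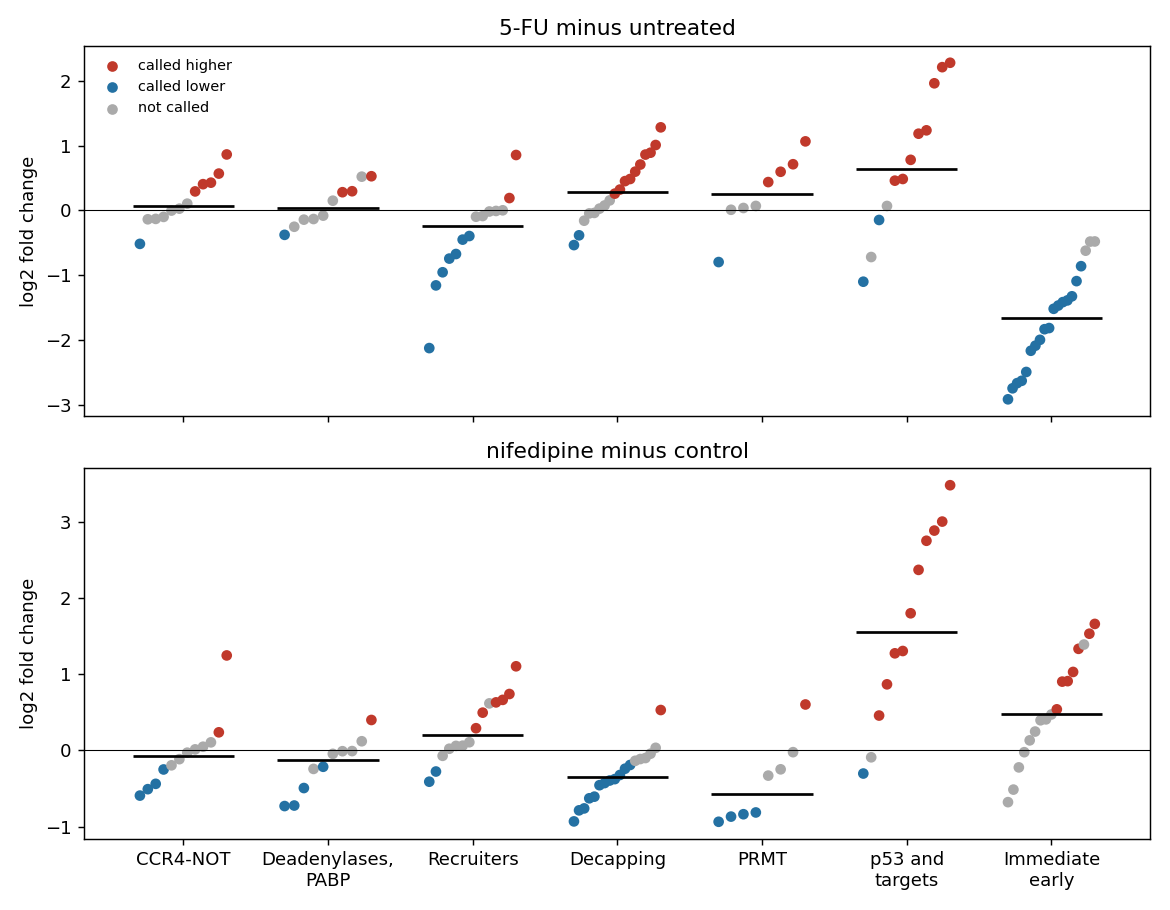
Log2 fold change (y axis, linear) of each gene tested in 7 lists (x axis) after 5-FU (upper panel) and with nifedipine (lower panel), coloured by whether it was called, with the list's median as a horizontal line. The decapping list has 10 genes called higher after 5-FU and 12 called lower with nifedipine. These are 13 and 9 with library totals derived from the RPKM values. Of all genes tested, 26.7% were called higher after 5-FU and 24.2% lower with nifedipine.

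Genes that moved beside the members were summed by library. Of all genes tested, 25.8% were called higher and 24.2% lower with nifedipine, and 26.7% higher and 23.8% lower after 5-FU. In the p53 list, 10 of 12 genes were called higher and 1 lower with nifedipine (median log2 fold change 1.55). Its summed level was 1757 to 2113 CPM against 735 to 806 CPM in control libraries. *Zmat3* rose by 2.89 (edgeR adjusted p = 2.41e-12), *Trp53inp1* by 2.75 (adjusted p = 1.14e-11) and *Ccng1* by 1.28 (adjusted p = 1.65e-10). After 5-FU 8 of the 12 were called higher and 2 lower (median 0.63), and the summed level was 626 to 692 CPM against 598 to 656 CPM in untreated libraries. *Zmat3* rose by 2.21 (adjusted p = 4.42e-06) and *Phlda3* by 2.28 (adjusted p = 4.34e-05), while *Trp53inp1* fell by 1.10 (adjusted p = 6.53e-05). *Btg2*, a p53 target, was thus lower after 5-FU while most of this list was higher. The part of p53 in the members' levels was not tested.

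Immediate early genes summed to 2945 to 5273 CPM in untreated, 685 to 1680 in 5-FU, 144 to 173 in control and 288 to 321 in nifedipine libraries. After 5-FU 17 of 20 were called lower (median log2 fold change -1.67), among them *Egr1* (from 1068 ± 272 to 173 ± 45.2 CPM, -2.63, edgeR adjusted p = 7.94e-06), *Dusp2* (-2.17, adjusted p = 3.91e-06) and *Ier2* (-2.09, adjusted p = 1.05e-05). With nifedipine 7 of the 17 that passed the filter were called higher (median 0.47). *Klf6* rose by 1.34 (adjusted p = 8.53e-09), *Ier3* by 1.03 (adjusted p = 2.73e-05) and *Egr1* by 1.66 (adjusted p = 2.83e-05). In control cultures *Fos* averaged 0.319 CPM against 1060 in untreated libraries. The untreated group, in which *Btg1* and *Btg2* were highest, also had the highest sum of this list, and its part in their levels was not tested.

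Mitosis genes went the other way from *Btg1* and *Btg2*. All 12 were called higher after 5-FU (median log2 fold change 3.44), among them *Ccnb1*, which rose from 12.2 ± 6.67 to 147 ± 31.6 CPM (edgeR adjusted p = 1.33e-05). With nifedipine 7 were called lower and 1 higher (median -0.74), with *Mki67* down by 0.88 (adjusted p = 3.30e-10). The summed level was 164 to 752 CPM in untreated, 2830 to 3300 in 5-FU, 3246 to 3372 in control and 2080 to 2400 in nifedipine libraries. Untreated 3, the untreated library with the highest sum, had *Btg1* at 208 and *Btg2* at 191 CPM, inside the range of the other untreated libraries.

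The genes whose pattern was most like each member were ranked by Pearson's r of log2 CPM over the 15 libraries, among 9294 genes. These values describe libraries that share their groups, so r after subtracting the group means is given beside each. The gene nearest to *Btg2* was *Btg1*, with r = 0.972 over all libraries and 0.635 within groups. For *Btg1* the nearest were *Frs2* (0.978, within groups 0.807), *Khnyn* (0.976, 0.527) and *Mylip* (0.975, 0.613), and *Mylip* was also the next nearest to *Btg2* (0.967, 0.531), before *Fam193b* (0.965, 0.466). *Btg3* was nearest to *Rara* (0.915, 0.683), *Cluap1* (0.868, 0.558) and *Plxna1* (0.864, 0.641). *Tob1* was nearest to *Vmp1* (0.949, 0.625), *Sqstm1* (0.926, 0.589) and *Mpp1* (0.921, 0.400), of which *Vmp1* and *Sqstm1* are known for autophagy. *Tob2* was nearest to *Cramp1l* (0.942, 0.786), *N4bp2* (0.921, 0.562) and *Acad10* (0.904, 0.523). Between members, r over all libraries was 0.878 for *Btg2* and *Tob2* (within groups 0.469) and 0.827 for *Btg1* and *Tob2* (0.506), but 0.154 for *Btg1* and *Tob1* (0.157) and 0.111 for *Tob1* and *Tob2* (0.187).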

How the data were processed

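RNA of sorted mouse HSCs was sequenced in 15 libraries, and groups and replicate numbers were read from the titles. Per the labels' protocols, cDNA was made from 100 cells and libraries were made with a Nextera XT kit. Per the submitters' processing notes the build was mm10; the aligner and counter were not given in the sources used here. Per the file headers, each deposited table of 48737 features gives the total exon reads, whole-number counts per gene, and the authors' RPKM values. Copies of a gene on other scaffolds were added up (4543 copies of 1926 genes, none of a member).

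The deposited counts were tested with edgeR 4.0.16 in R 4.3.3 (TMM, filterByExpr at its defaults, group as the only term, each comparison on its own libraries). The scripts were tested on simulated data. Of simulated 2-fold and 1.5-fold changes, 61.6% and 40.4% were called for 5-FU, and 85.9% and 63.6% for nifedipine. Between control and untreated, 62.6% and 38.8% were called. False calls were 5 of 106, 10 of 158 and 4 of 104 in the same order. A gene that was not called may thus still differ. CPM of 1 gene across groups use 1 TMM over all libraries, and CPM beside a fold change of a list gene use that of its comparison. The deposited RPKM values gave exon lengths and the read totals used as other library sizes. Libraries of a group all differed by more than sampling noise.

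The members and lists were chosen with earlier results of these data known. Named were the members, in each partner list the called genes with the smallest p (at most 3 in each direction), the 3 with the smallest p in the p53, immediate early and mitosis lists, and the 3 most alike genes (mean of at least 10 CPM). *Cnot7*, *Cnot8* and the marker genes were named besides. Alternatives were DESeq2 1.42.0, limma-voom 3.58.1, other filters, scalings and fits, a replicate block and leaving out each library.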

Additional observations from a re-analysis of the deposited data

How the results depend on the processing

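Under the alternatives, 136 values that answer a comparison held, 4 moved and 1 lost its call. Of the others 164 held, 10 moved and 1 reversed. A member with nifedipine held if it kept its direction and call. Other member values held if they kept their direction and moved by less than 1 SD. The 136 include numbers of genes called, which held if they stayed within a set factor of the number reported. These were 18 values after 5-FU, 16 with nifedipine and 17 between control and untreated. Without 1 replicate, *Btg2* with nifedipine ranged from 0.47 to 1.00, and its call was lost without Control 1 (0.47, edgeR adjusted p = 0.0678). The difference of *Tob1* between control and untreated reversed to 0.049 with library totals derived from the RPKM values. The log2 ratio of untreated to control for *Btg1* moved from 2.20 to 2.45 without TMM and to 1.90 with RPKM, that of 5-FU to control for *Btg3* from 0.55 to 0.75 without TMM, and that of untreated to 5-FU for *Tob2* from 0.44 to 0.22 with RPKM; the cause was not tested. Those totals moved the median of all genes by 0.20 after 5-FU, where calls went from 3580 higher and 3185 lower to 5148 and 1839, and by 0.24 between control and untreated, where they went from 4842 and 4887 to 5848 and 3831. Genes called ranged from 5922 to 7054 after 5-FU (6765 as reported), from 5477 to 6522 with nifedipine (6396) and from 8121 to 10199 between control and untreated (9729). Leaving out Untreated 3 and 5-FU 4 together was chosen after seeing the data. Without them the calls after 5-FU became 7 higher in the p53 list and 16 lower among immediate early genes, and the CCR4-NOT, recruiter, decapping, methyltransferase and mitosis counts did not change. The stromal and endothelial markers called lower went from 4 to 8. With DESeq2, 3 CCR4-NOT genes and 3 of the other deadenylase list were called lower after 5-FU. Same-numbered libraries deviated together at most weakly (r from -0.141 to 0.163 after 5-FU, 0.012 to 0.048 with nifedipine and 0.004 to 0.033 between control and untreated), so the numbers were not taken as pairs. Each control library did correlate best with the nifedipine library of its number, and Untreated 1 to 3 with the control library of theirs. The reverse failed for Nifedipine 3 (0.023 with Control 1 against 0.012) and Control 2 (0.015 with Untreated 4 against 0.012). In none of the 3 comparisons did every library correlate best with its own number. With a replicate block, 6332, 6283 and 9002 genes were called after 5-FU, with nifedipine and between control and untreated, and *Btg1* (0.60), *Btg2* (0.76), *Btg3* (0.16), *Tob1* (0.90) and *Tob2* (-0.08) kept their calls with nifedipine. Depth limits *Btg2* most, with 64 to 293 reads per library outside the untreated group.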
